A study of Mus musculus with 16 samples.

Results

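The genes of the natriuretic peptide receptors (Npr1, Npr2 and Npr3), of the cGMP-dependent protein kinases (Prkg1 and Prkg2) and of the cGMP-specific phosphodiesterase Pde5a were followed through mouse brown and white fat under warm and cold housing. They were chosen by gene symbol, and each symbol matched 1 Ensembl identifier, so that the set holds 6 of the 46078 genes in the deposited count table. All 6 passed the filter on low counts in every comparison.

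Natriuretic peptides are hormones made mainly by the heart, and C-type natriuretic peptide is made by vessel walls and other tissues. Npr1 (NPR-A) and Npr2 (NPR-B) are membrane guanylyl cyclases that turn GTP into cyclic GMP (cGMP) when a peptide binds, whereas Npr3 (NPR-C) lacks a cyclase domain and takes the peptides up for degradation, which is why it is called the clearance receptor. cGMP activates the kinases encoded by Prkg1 and Prkg2, and phosphodiesterases such as Pde5a end the signal by hydrolysing it. In fat cells this route is known for stimulating lipolysis and, in brown and beige fat cells, the thermogenic programme, and the balance of Npr1 to Npr3 is commonly read as a measure of how much peptide signal can reach the cell.

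Poly(A)-selected RNA was sequenced from female wild-type C57BL/6 mice aged 16 weeks, all reared at 30 °C. Cold-housed mice left 30 °C when 10 to 12 weeks old, spent 2 weeks at 18 °C and then 3 weeks at 5 °C, and food was taken away 2 to 3 h before collection in both conditions. The 16 libraries form 4 groups of 4: brown adipose tissue at 5 °C (BAT_5C) and at 30 °C (BAT_30C), and inguinal white adipose tissue at 5 °C (WAT_5C) and at 30 °C (WAT_30C). The comparisons address what long cold housing did to these genes in each fat, and how the fats differ at 1 temperature.

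Some labels disagree. The tissue label of the brown fat names an inguinal site, and in 4 of the 8 BAT libraries (BAT_5C replicates 1 and 2, BAT_30C replicates 3 and 4) the source name gives the other temperature. Groups follow the title and the housing temperature, and Ucp1, the uncoupling protein of brown fat that cold induces, separated the brown fat libraries along them: it had 12388 to 13787 CPM (the count scaled to a common library size) in BAT_5C, against 634 to 2019 CPM in BAT_30C. In white fat Ucp1 had 6.08 to 399 CPM in WAT_5C, against 0.0839 to 0.324 CPM in WAT_30C. Whether the libraries come from separate mice is not stated in the labels, so p-values measure the spread between libraries. Depth was 54264023 to 71289020 counts per library. All CPM use library sizes adjusted by TMM, and CPM per kb divides them by the length of the longest coding transcript wherever genes are set against each other.

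The library labelled WAT_5C replicate 1 stands apart from the other 3 of its group. Xist had 3 counts in it, against 11136 to 88934 in the other 15 libraries. Its label says female, yet 4 Y-linked genes had 17183 counts in it, against 3 to 45 in the others. Markers of mammary epithelium, 12 in all, summed to 21.2 CPM there, against 997 to 1064 CPM in the other WAT_5C libraries. Its 8 adipocyte markers summed to 17254 CPM, against 4632 to 6820 CPM in those, and its 10 T and NK cell markers to 114 CPM, against 402 to 498 CPM. The comparisons of the 6 genes that use this library are given with and without it.

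The stretch of 250 bases upstream of the RefSeq start (GRCm38.p6) is shown for Npr1 and Npr3, because the ratio of these 2 receptors is followed below and only Npr1 of the pair changed with cold in brown fat. Npr1 lies on the minus strand at chr3:90465867-90466116 and Npr3 on the minus strand at chr15:11907372-11907621. Each runs 5′ to 3′ in the direction of the gene, and capitals mark motifs found by their letters on either strand.
Npr1: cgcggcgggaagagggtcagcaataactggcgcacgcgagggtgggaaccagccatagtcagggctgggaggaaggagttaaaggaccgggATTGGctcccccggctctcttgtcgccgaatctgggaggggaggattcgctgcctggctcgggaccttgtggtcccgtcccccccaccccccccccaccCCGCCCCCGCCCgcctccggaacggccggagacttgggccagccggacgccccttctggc
Npr3: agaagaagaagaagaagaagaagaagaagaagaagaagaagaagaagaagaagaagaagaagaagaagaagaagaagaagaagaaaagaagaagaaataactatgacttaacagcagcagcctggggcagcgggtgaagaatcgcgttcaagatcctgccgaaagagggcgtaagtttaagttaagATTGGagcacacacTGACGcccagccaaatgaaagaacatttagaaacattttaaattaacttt

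The Npr1 stretch is rich in G and C (70.4%), against 38.8% in the Npr3 stretch, which opens with a run of aga repeats. The median over the same 250 upstream bases of all 32851 RefSeq windows was 52.4%, and the shares of windows below use these bases too. The Npr1 stretch holds 2 GC boxes (GGGCGG) at -60 to -55 and -54 to -49 from the start and 1 CCAAT box at -159 to -155. The Npr3 stretch holds 1 CCAAT box at -64 to -60 and 1 TGACG motif, the core of a cAMP response element, at -50 to -46. These letters are common: GGGCGG stood in 32.7% of all windows, CCAAT in 33.8% and TGACG in 17.8%. The full cAMP response element TGACGTCA (1.55% of windows), TATAAA (12.4%) and a nuclear receptor repeat of 2 AGGTCA motifs spaced by 1 base (0.0335%) were also searched on both strands and are in neither stretch. TGACG lies within TGACGTCA, and no other pair of these motifs is nested.

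In brown fat, long cold housing went with less Npr1 RNA and less Pde5a RNA. Npr1, the receptor of atrial and B-type natriuretic peptides, had 125, 103, 98.8 and 110.4 CPM in the BAT_5C libraries, against 208, 222, 228 and 213 CPM in the BAT_30C libraries. Every cold library lay below every warm one, with a wide gap between the groups. Npr1 fell to 109 ± 11.5 CPM in BAT_5C, against 218 ± 8.89 CPM in BAT_30C (SD, n = 4 each), which is 1.99-fold lower (log2 fold change -0.99 ± 0.08 SE, edgeR quasi-likelihood adjusted p = 6.63e-06).

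Pde5a, which degrades cGMP, had 3.17, 3.20, 3.32 and 3.51 CPM in BAT_5C, against 7.86, 8.76, 9.88 and 7.41 CPM in BAT_30C. The cold libraries were close together and all below the warm ones. Pde5a fell 2.57-fold, to 3.30 ± 0.155 CPM in BAT_5C, against 8.48 ± 1.09 CPM in BAT_30C (log2 fold change -1.36 ± 0.13 SE, edgeR adjusted p = 1.37e-05).

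Npr2, the receptor of C-type natriuretic peptide, had 60.0, 60.6, 57.2 and 59.0 CPM in BAT_5C, against 90.9, 62.9, 73.5 and 65.9 CPM in BAT_30C. The groups did not overlap, but the nearest warm library lay just above the cold ones. Npr2 fell by 0.31 on the log2 scale (SE 0.11, edgeR adjusted p = 0.0297). This call was lost without any 1 of the BAT_5C libraries or without BAT_30C replicate 3 (adjusted p up to 0.0776), in the 4 libraries whose labels all match (log2 fold change -0.40, adjusted p = 0.141) and in the fit of all 16 libraries (-0.31, adjusted p = 0.308).

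Npr3, the clearance receptor, had 139, 152, 115 and 176 CPM in BAT_5C, against 83.1, 153, 106 and 173 CPM in BAT_30C. The groups overlapped over most of their range. The log2 fold change was 0.18 ± 0.22 SE, with a 95% interval of -0.26 to 0.61 (edgeR adjusted p = 0.51), so a fall of the size seen for Npr1 lies outside the interval.

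Both kinases were low in brown fat. Prkg1, the kinase of smooth muscle and many other cells, had 0.820, 1.26, 0.730 and 0.914 CPM in BAT_5C, against 1.81, 1.07, 1.30 and 1.35 CPM in BAT_30C. BAT_5C replicate 2 lay within the range of the warm group and the other 3 cold libraries below it. Its log2 fold change of -0.57 ± 0.25 SE missed the threshold (edgeR adjusted p = 0.0774) and passed it without BAT_5C replicate 2 (-0.73, adjusted p = 0.0388). Prkg2, best known from gut and bone, had 5 to 12 counts per library in BAT_5C, against 9 to 17 counts in BAT_30C. Its log2 fold change of -0.06 had a 95% interval of -0.80 to 0.68 (edgeR adjusted p = 0.905), which says little at this depth.

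In brown fat 3 of the 6 genes thus fell and 0 rose, where 59.5% of the 16213 genes tested changed, 29.2% upwards and 30.3% downwards. Groups did not overlap for 3 of the 6, against 55.2% of all genes tested. The shares called and not overlapping are near the background. The median log2 fold change of the 6 genes was -0.44, against -0.05 over all genes tested. Scaling by library totals alone moved the median of all genes by -0.38. With it Npr1 (-1.37) and Pde5a (-1.74) stayed below that shift, Npr3 turned to -0.19 and Prkg1 passed the threshold (-0.95, edgeR adjusted p = 0.0111).

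Fewer cells of a type and less RNA per cell cannot be told apart in bulk tissue. The 10 endothelial markers, a cell type known to carry Npr1, summed to 1539 to 1627 CPM in BAT_5C, against 1547 to 1912 CPM in BAT_30C, and 3 of them rose and 6 fell. The 10 smooth muscle and pericyte markers, cells known to carry Pde5a and Prkg1, summed to 1263 to 1363.5 CPM in BAT_5C, against 1085 to 1295 CPM in BAT_30C, and 4 rose and 2 fell. The 8 adipocyte markers summed to 13178 to 14217 CPM in BAT_5C, against 10860 to 12893 CPM in BAT_30C, and 4 rose and 3 fell. The 10 T and NK cell markers summed to 2.22 to 5.82 CPM in BAT_5C, against 8.76 to 11.9 CPM in BAT_30C, and 7 of the 9 tested fell, with a median log2 fold change of -1.76. None of the markers of these 4 lists was at 0 counts in all libraries of either group. Their part in the falls of Npr1 and Pde5a was not tested.

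**Figure D1:**
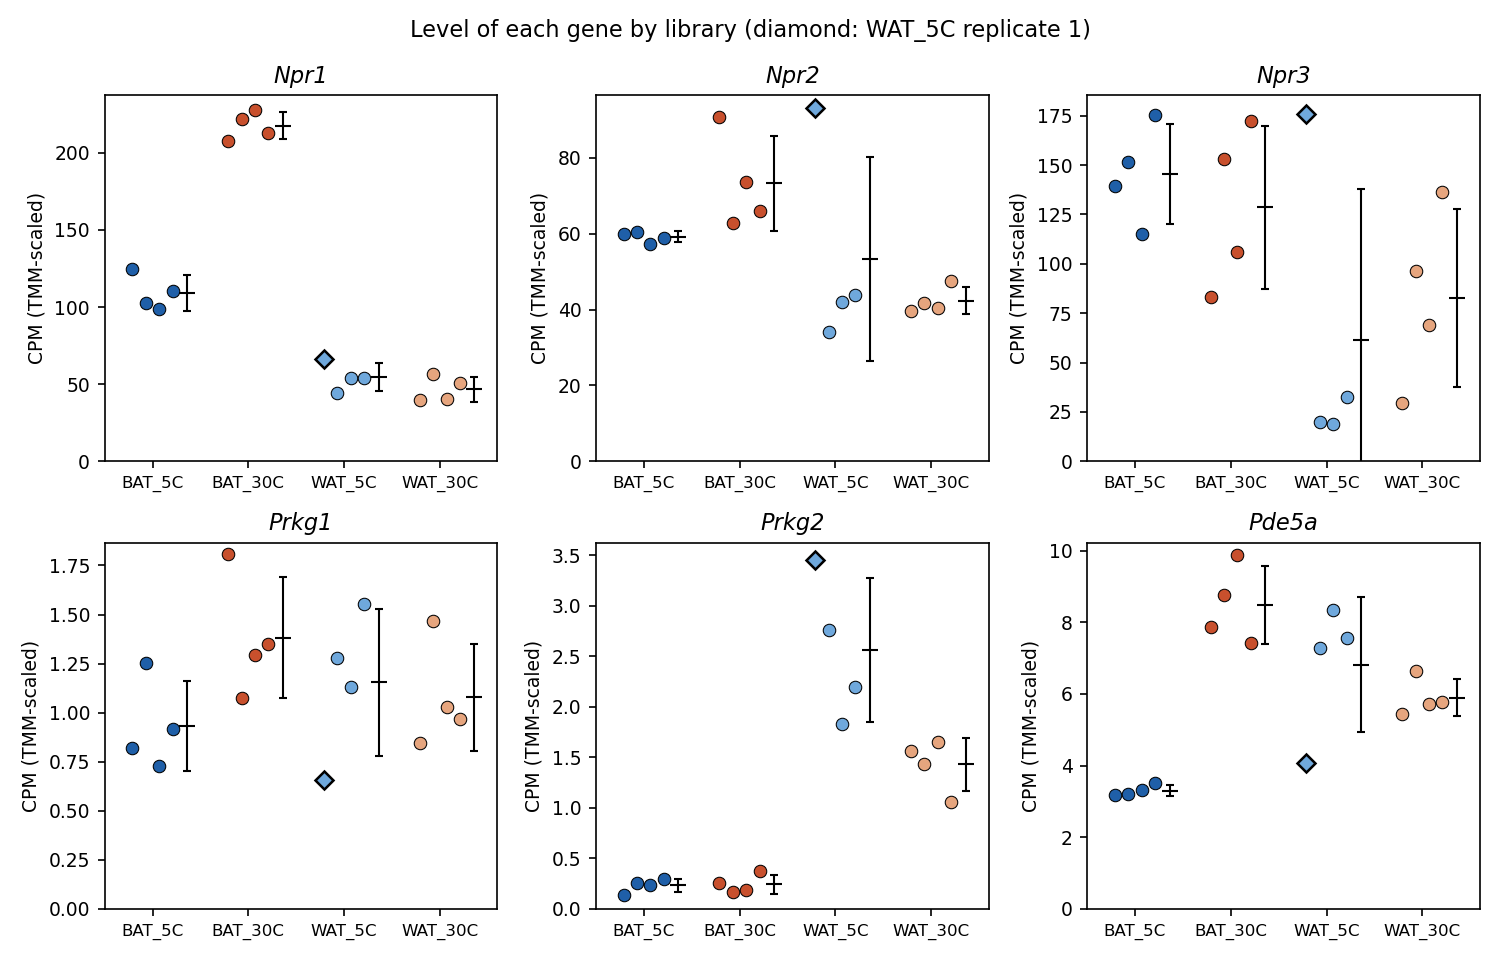
Level of each gene in every library, in CPM with TMM-adjusted library sizes, for BAT_5C, BAT_30C, WAT_5C and WAT_30C. Points are libraries, the diamond is WAT_5C replicate 1, and the bar beside each group is the mean ± SD (n = 4; the lower bar of Npr3 in WAT_5C is cut at 0). Npr1 and Pde5a of BAT_5C lie wholly below BAT_30C, and Npr2 and Npr3 of WAT_5C replicate 1 lie far above the other WAT_5C libraries.

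In white fat none of the 6 genes passed the threshold, with all 8 libraries or without WAT_5C replicate 1. Ucp1 also missed it in edgeR with all 8 libraries, and passed without WAT_5C replicate 1 (log2 fold change 9.92, edgeR adjusted p = 0.0208). A miss with all 8 libraries therefore says little about the size of an effect. With all 8, 0.0632% of the 18975 genes tested changed (12 genes, with 3430 at an unadjusted p under 0.05), and without that library 2.11% of 19320 did, 1.84% upwards and 0.274% downwards. DESeq2 called 1122 genes over all 8 libraries and 1 of the 6, Prkg2.

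Npr1 had 66.1, 44.3, 54.2 and 53.7 CPM in WAT_5C, against 39.6, 56.3, 40.1 and 50.5 CPM in WAT_30C. The groups overlapped. The log2 fold change was 0.20 ± 0.16 SE (edgeR adjusted p = 0.489), and 0.08 ± 0.14 SE without WAT_5C replicate 1 (adjusted p = 0.762).

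Npr3 had 176, 19.6, 18.6 and 32.3 CPM in WAT_5C, against 29.3, 96.5, 69.2 and 136 CPM in WAT_30C. WAT_5C replicate 1 was the highest of all 8 libraries, its 3 group mates were among the lowest 4, and WAT_30C replicate 1 was as low as these. Over all 8 libraries the log2 fold change was -0.46 ± 0.80 SE (edgeR adjusted p = 0.765). Without WAT_5C replicate 1 it was -1.85 ± 0.48 SE, with 23.5 ± 7.63 CPM in WAT_5C (SD, n = 3) and 82.8 ± 45.0 CPM in WAT_30C (SD, n = 4), and still missed the threshold (adjusted p = 0.0831).

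The sum of the 8 adipocyte markers was 17254, 4632, 6645 and 6820 CPM in WAT_5C replicates 1 to 4, against 3048, 4580, 4241 and 5309 CPM in WAT_30C replicates 1 to 4. WAT_5C replicate 1 had the highest marker sum and the highest Npr3, and the WAT_30C libraries stand in the same order for both. WAT_5C replicates 3 and 4 had higher marker sums than every WAT_30C library, with Npr3 at 18.6 and 32.3 CPM. The 8 skeletal muscle markers summed to 5550.5, 9.13, 72.4 and 186 CPM in WAT_5C, against 93.5, 2042, 7949 and 1792 CPM in WAT_30C. The white fat libraries with little muscle RNA were also those with little Npr3. Brown fat did not follow this, with muscle sums of 579, 1898, 772 and 1.73 CPM in BAT_5C and 1200, 244, 2.06 and 1176 CPM in BAT_30C. Its lowest sum, in BAT_5C replicate 4, stood beside its highest Npr3 (176 CPM). The part of either in the Npr3 values was not tested.

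Npr2 had 93.2, 34.0, 42.1 and 43.9 CPM in WAT_5C, against 39.6, 41.8, 40.4 and 47.6 CPM in WAT_30C. Only WAT_5C replicate 1 left the common range upwards. The log2 fold change of 0.30 ± 0.29 SE (edgeR adjusted p = 0.573) turned to -0.12 ± 0.10 SE without that library (adjusted p = 0.528).

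Prkg2 had 3.46, 2.76, 1.83 and 2.19 CPM in WAT_5C, against 1.57, 1.44, 1.65 and 1.06 CPM in WAT_30C. All cold libraries lay above all warm ones. The log2 fold change of 0.81 ± 0.25 SE did not pass over all genes in edgeR (adjusted p = 0.208), nor did 0.63 ± 0.22 SE without WAT_5C replicate 1 (adjusted p = 0.143). It passed in DESeq2 (0.83, adjusted p = 0.036). Groups did not overlap for 13.7% of all genes tested.

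Prkg1 had 0.656, 1.28, 1.13 and 1.55 CPM in WAT_5C, against 0.846, 1.47, 1.03 and 0.967 CPM in WAT_30C, with overlap. Its log2 fold change was 0.07 ± 0.30 SE (edgeR adjusted p = 0.908), and 0.26 ± 0.24 SE without WAT_5C replicate 1 (adjusted p = 0.554). Pde5a had 4.07, 7.28, 8.34 and 7.57 CPM in WAT_5C, against 5.44, 6.63, 5.73 and 5.77 CPM in WAT_30C. WAT_5C replicate 1 was the lowest of the 8 for both genes, and the other 3 cold libraries lay above all warm ones for Pde5a. Without that library the groups did not overlap for 19% of all genes tested. The log2 fold change of Pde5a was 0.18 ± 0.22 SE (edgeR adjusted p = 0.656), and 0.36 ± 0.11 SE without that library (adjusted p = 0.12).

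**Figure D2:**
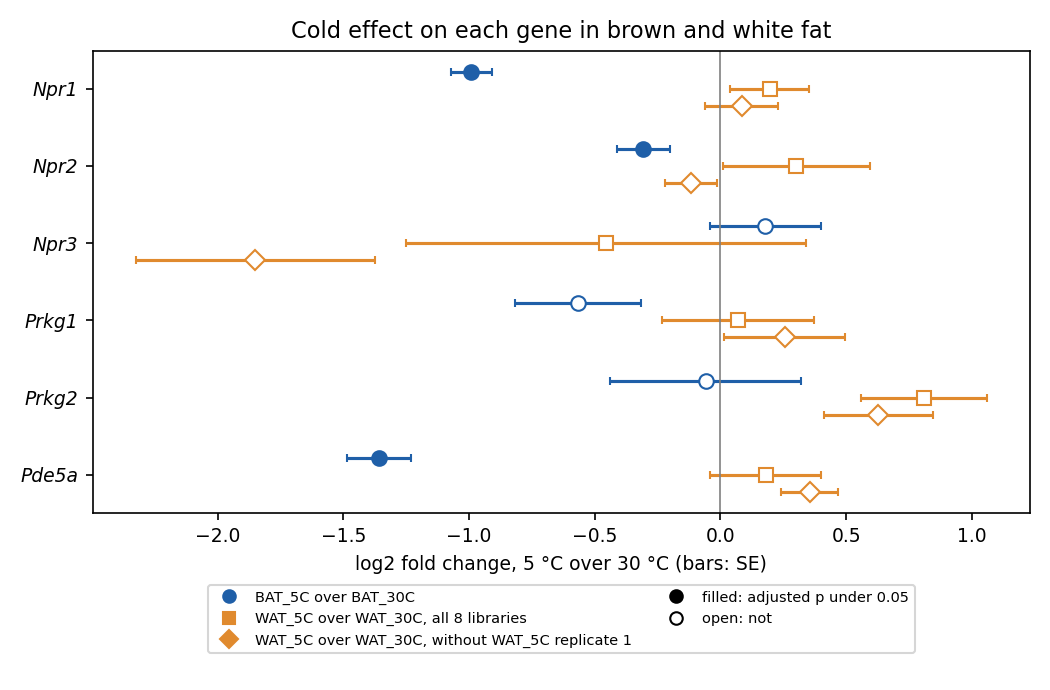
Log2 fold change of each gene at 5 °C over 30 °C in brown fat (circles), in white fat with all 8 libraries (squares) and in white fat without WAT_5C replicate 1 (diamonds), with bars of 1 SE on each side. Filled symbols passed an adjusted p of 0.05, which only Npr1 (-0.99), Npr2 (-0.31) and Pde5a (-1.36) of brown fat did, and the white fat value of Npr3 is -0.46 with and -1.85 without that library.

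The effects of cold on Npr1 and Pde5a differed between the fats. The difference between the white fat and the brown fat effect was 1.22 ± 0.19 SE on the log2 scale for Npr1 (edgeR interaction term, adjusted p = 0.000397) and 1.57 ± 0.26 SE for Pde5a (adjusted p = 0.000665). These 2 of the 6 genes were called, both upwards, where 20.8% of 19481 genes were called, 12.5% upwards and 8.34% downwards. Without WAT_5C replicate 1 the differences were 1.07 ± 0.17 SE for Npr1 (adjusted p = 0.000298) and 1.71 ± 0.16 SE for Pde5a (adjusted p = 6.04e-06), and Npr3 joined them with -2.04 ± 0.53 SE (adjusted p = 0.00959), where 31.3% of all genes were called, 15.6% upwards and 15.7% downwards. With that library the Npr3 difference was -0.60 ± 0.88 SE (edgeR adjusted p = 0.672), while limma-voom called it (-1.59, adjusted p = 0.0199). The differences of Npr2 (0.64, adjusted p = 0.188), Prkg1 (0.67, adjusted p = 0.258) and Prkg2 (0.90, adjusted p = 0.152) did not pass with or without it.

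The ratio of Npr1 to Npr3 counts within a library needs no scaling between libraries. It was 0.897, 0.678, 0.860 and 0.628 in BAT_5C, against 2.50, 1.45, 2.15 and 1.24 in BAT_30C. All cold libraries lay below 1 and all warm ones above. In white fat it was 0.376, 2.26, 2.91 and 1.66 in WAT_5C, against 1.35, 0.584, 0.580 and 0.370 in WAT_30C. There the order was the other way round except for WAT_5C replicate 1, which had almost the lowest ratio of all. Per length of transcript, where Npr3 counts for less, the ratio was 1.07 to 1.52 in BAT_5C and 2.09 to 4.24 in BAT_30C, and 2.82 to 4.94 in WAT_5C without replicate 1 and 0.628 to 2.29 in WAT_30C.

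The mean log2 ratio was -0.40 ± 0.25 in BAT_5C and 0.82 ± 0.48 in BAT_30C (SD, n = 4 each), a difference of -1.22, or 2.33-fold lower with cold. A two-sided exact permutation test gave p = 0.0286, the smallest that 4 against 4 allows, and an adjusted p = 0.114 over the 4 comparisons of the ratio, which does not pass. In white fat the difference between WAT_5C and WAT_30C was 1.15 (exact p = 0.171, adjusted p = 0.171), and 1.79 without WAT_5C replicate 1 (exact p = 0.0571, adjusted p = 0.0571). Between BAT_30C and WAT_30C it was 1.46 (exact p = 0.0571, adjusted p = 0.114). Between BAT_5C and WAT_5C it was -0.91 (exact p = 0.171, adjusted p = 0.171), and -1.55 without that library (exact p = 0.0286, adjusted p = 0.0571). None of the 4 comparisons passed after adjustment. With groups this small, a comparison at the smallest p cannot pass alone whatever its size, so these failures say little. The difference between the fats in the effect of cold on the ratio was not tested.

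**Figure D3:**
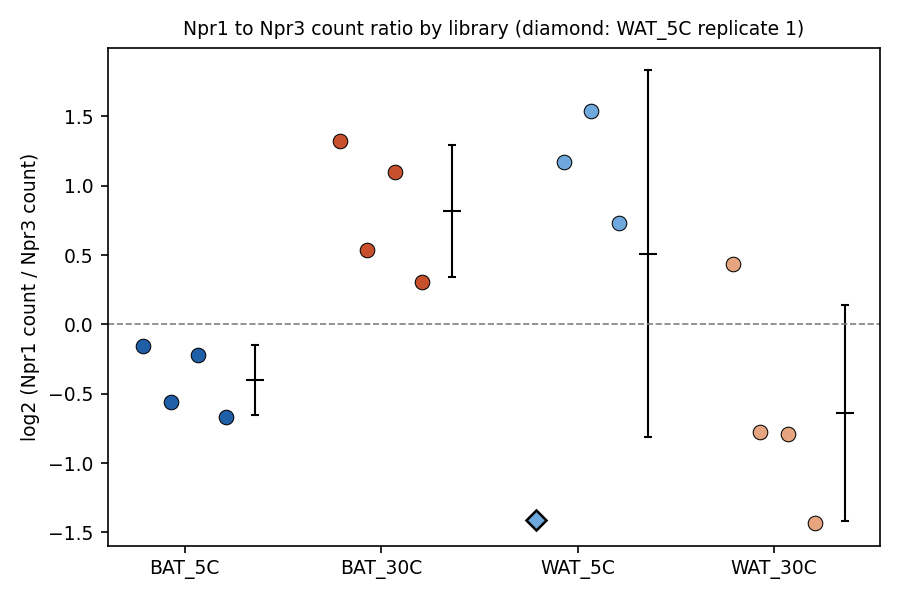
Log2 of the ratio of Npr1 to Npr3 counts in each library of BAT_5C, BAT_30C, WAT_5C and WAT_30C, with the mean ± SD of each group (n = 4) beside the points; the dashed line marks equal counts. BAT_5C lies below the line and BAT_30C above it, and WAT_5C replicate 1 (diamond) lies apart from the other 3 WAT_5C libraries, which are above all of WAT_30C.

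Npr1 was a gene of brown fat more than of white fat at both temperatures. At 30 °C it averaged 218 ± 8.89 CPM in BAT_30C and 46.6 ± 8.18 CPM in WAT_30C (SD, n = 4 each), 4.67-fold higher in brown fat (log2 fold change 2.22 ± 0.14 SE, edgeR adjusted p = 1.04e-08). At 5 °C it averaged 109 ± 11.5 CPM in BAT_5C and 54.5 ± 8.92 CPM in WAT_5C, 2.00-fold higher in brown fat (log2 fold change 1.002 ± 0.13 SE, adjusted p = 8.29e-06), and the log2 fold change was 1.09 ± 0.13 SE without WAT_5C replicate 1 (adjusted p = 1.63e-06). From high to low the groups stood as BAT_30C, BAT_5C, WAT_5C, WAT_30C, and only the last 2 overlapped. With library totals, which moved the median of all genes by -0.93 between the fats at 5 °C, the difference there was 0.09 (adjusted p = 0.46).

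Prkg2 was the reverse, a kinase gene of white fat. It averaged 0.244 ± 0.0928 CPM in BAT_30C and 1.43 ± 0.260 CPM in WAT_30C, 5.85-fold lower in brown fat (log2 fold change -2.55 ± 0.31 SE, edgeR adjusted p = 3.73e-06). At 5 °C it averaged 0.231 ± 0.0652 CPM in BAT_5C and 2.56 ± 0.711 CPM in WAT_5C, 10.9-fold lower (log2 fold change -3.45 ± 0.32 SE, adjusted p = 2.49e-07), with -3.29 ± 0.31 SE without WAT_5C replicate 1 (adjusted p = 1.43e-07). The brown fat and white fat libraries did not overlap at either temperature, as for 66.9% of all genes at 30 °C and 61.4% at 5 °C. Per kb, Prkg2 stood at 0.0465 and 0.0491 CPM in BAT_5C and BAT_30C beside 0.133 and 0.198 CPM of Prkg1, and at 0.515 and 0.288 CPM in WAT_5C and WAT_30C beside 0.165 and 0.154 CPM of Prkg1. Prkg1 did not differ beyond its spread between the fats at 30 °C (log2 fold change 0.36, adjusted p = 0.266) or at 5 °C (-0.31, adjusted p = 0.335, and -0.52, adjusted p = 0.0817, without WAT_5C replicate 1). At 5 °C it was called lower in brown fat with limma-voom (-0.51) and with library totals (-1.29).

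The order of the fats for Pde5a depended on the temperature. At 30 °C it was higher in BAT_30C than in WAT_30C (8.48 ± 1.09 and 5.89 ± 0.513 CPM; log2 fold change 0.52 ± 0.18 SE, edgeR adjusted p = 0.0173), a call lost without BAT_30C replicate 3 (adjusted p = 0.0551). At 5 °C it was lower in BAT_5C than in WAT_5C (3.30 ± 0.155 and 6.81 ± 1.88 CPM; log2 fold change -1.05 ± 0.18 SE, adjusted p = 0.000123), with -1.24 ± 0.12 SE without WAT_5C replicate 1 (adjusted p = 2.28e-07). With library totals, which moved the median of all genes at 30 °C by -0.85, the value there turned to -0.33 (adjusted p = 0.226).

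Npr2 was higher in BAT_30C than in WAT_30C (73.3 ± 12.5 and 42.3 ± 3.604 CPM; log2 fold change 0.79 ± 0.23 SE, edgeR adjusted p = 0.00731), with -0.05 under library totals. At 5 °C it averaged 59.2 ± 1.46 CPM in BAT_5C and 53.3 ± 26.9 CPM in WAT_5C (log2 fold change 0.15, adjusted p = 0.572), and without WAT_5C replicate 1 the log2 fold change was 0.55 ± 0.12 SE (adjusted p = 0.000539). Npr3 averaged 129 ± 41.2 CPM in BAT_30C and 82.8 ± 45.0 CPM in WAT_30C (log2 fold change 0.64 ± 0.62 SE, edgeR adjusted p = 0.373), and limma-voom called it higher in brown fat (0.98, adjusted p = 0.023). At 5 °C it averaged 145 ± 25.3 CPM in BAT_5C and 61.6 ± 76.4 CPM in WAT_5C (log2 fold change 1.24 ± 0.63 SE, edgeR adjusted p = 0.0884). It passed in DESeq2 (1.26, adjusted p = 0.0436) and in limma-voom (2.56, adjusted p = 2.66e-06), and in edgeR without WAT_5C replicate 1 the log2 fold change was 2.62 ± 0.42 SE (adjusted p = 4.62e-05).

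At 30 °C 3 of the 6 genes were thus higher in brown fat and 1 lower, where 69.8% of all genes were called, 34.5% higher and 35.3% lower. With WAT_5C replicate 1 left out of the fit, the 30 °C counts were again 3 higher and 1 lower, where 14443 of 19849 genes were called. At 5 °C 1 was higher and 2 lower, where 72.4% were called, 31.8% higher and 40.5% lower. Without WAT_5C replicate 1, 3 were higher and 2 lower, where 76.2% of all genes were called, 34% higher and 42.2% lower, and the fats did not overlap for 76.8%. Per kb the receptors stood above the kinases and Pde5a in every group, with 26.9, 53.5, 13.4 and 11.5 CPM of Npr1 in BAT_5C, BAT_30C, WAT_5C and WAT_30C. Npr3 had 21.1, 18.7, 8.94 and 12.0 CPM per kb in the same order, and 3.41 in WAT_5C without replicate 1. Markers of several cell types moved with the tissue. Between BAT_30C and WAT_30C all 10 endothelial markers (median log2 fold change 1.41) and 7 of 8 adipocyte markers (1.54) were higher in brown fat. All 10 fibroblast and progenitor markers (-1.44), all 7 macrophage markers (-1.77) and all 10 T and NK cell markers (-6.04) were lower. Other lists were split: 6 of the 10 smooth muscle and pericyte markers were higher and 4 lower (1.03). Of the 6 Schwann cell markers 2 were higher and 3 lower (-0.51). At 5 °C, with and without WAT_5C replicate 1, these counts were 9 and 10 of 10 endothelial and 4 and 6 of 8 adipocyte markers higher in brown fat. The fibroblast, macrophage and T and NK cell markers were again all lower there, both ways. The smooth muscle and pericyte markers were again 6 higher and 4 lower, and the Schwann cell markers 2 higher and 1 lower, both ways. The endothelial sum was 1539 to 1627 CPM in BAT_5C and 1547 to 1912 CPM in BAT_30C, against 600 to 931 CPM in WAT_5C and 530 to 652 CPM in WAT_30C. The 12 mammary epithelium markers summed to 21.2 to 1064 CPM in WAT_5C and 714 to 1079 CPM in WAT_30C, against 0.255 to 41.9 CPM in BAT_5C and 0.708 to 16.5 CPM in BAT_30C. Their part in the tissue differences was not tested.

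Of 49 further genes of the route, listed in 5 groups, 48 were found in the table. The peptides themselves were almost absent. Nppa and Nppb, the atrial and B-type peptides, had 3 and 0 counts over the 4 libraries of BAT_5C, 4 and 0 in BAT_30C, 2 and 1 in WAT_5C and 5 and 1 in WAT_30C. Nppc, the C-type peptide, had 0, 3, 8 and 9 counts in BAT_5C, BAT_30C, WAT_5C and WAT_30C, and Ostn, which encodes an Npr3 ligand, 0, 2, 12 and 16. Corin, the protease that processes the atrial peptide, had 16, 16, 103 and 100 counts. No change could be tested in these peptides at this depth.

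In brown fat 30 of the 48 were tested, and 9 rose and 12 fell with cold, where 59.5% of all genes tested changed, 29.2% upwards and 30.3% downwards. In the 4 libraries whose labels all match 10 of the listed genes passed, 3 upwards and 7 downwards. There 6058 of all 16535 genes tested passed, 3351 upwards and 2707 downwards. Each of the 3 tested enzymes of peptide processing rose: Furin, a proprotein convertase, averaged 314 ± 33.7 CPM in BAT_5C and 122 ± 4.26 CPM in BAT_30C (SD, n = 4 each; log2 fold change 1.37 ± 0.08 SE, edgeR adjusted p = 8.27e-07). The peptide-degrading enzymes Ide (log2 fold change 0.72, adjusted p = 0.0199) and Mme, or neprilysin (0.38, adjusted p = 0.00176), rose too. In the nitric oxide branch, the other source of cGMP, 1 of 6 rose and 3 fell. Of the subunits of soluble guanylyl cyclase, Gucy1a1 fell by 0.53 (adjusted p = 0.000217) and Gucy1b1 by 0.43 (adjusted p = 0.00177) on the log2 scale. The subunit Gucy1a2, at 0.424 CPM in BAT_5C and 0.534 CPM in BAT_30C, was not called. The inducible synthase Nos2 fell by 0.99 (adjusted p = 3.55e-05), while the endothelial synthase Nos3 rose by 0.31 (adjusted p = 0.00879).

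Among the other cGMP phosphodiesterases 1 of 10 rose and 5 fell. Pde1b fell to 6.59 ± 0.692 CPM in BAT_5C, against 18.3 ± 2.00 CPM in BAT_30C (log2 fold change -1.47 ± 0.11 SE, edgeR adjusted p = 3.74e-06), and Pde1a fell by 0.70 on the log2 scale (adjusted p = 1.39e-05). Both are calmodulin-dependent enzymes. Pde9a, a cGMP-selective enzyme, fell by 1.27 (adjusted p = 0.00137), and Pde11a, at under 1 CPM, by 2.07 (adjusted p = 0.00995). Of the targets, channels and exporters 4 of 11 rose and 4 fell. Irag1, a substrate of Prkg1 at the calcium store, fell by 0.90 (adjusted p = 4.93e-05), Rgs2, a brake on G protein signals, by 0.94 (adjusted p = 0.00437) and Vasp, a cytoskeletal substrate, by 0.43 (adjusted p = 0.0058). Lipe, or hormone-sensitive lipase, rose by 0.32 (adjusted p = 0.0096). None of the 5 other membrane guanylyl cyclases passed the filter on low counts in brown fat. Gucy2f and Pde6c, known from photoreceptors, had 0 counts in BAT_5C, and Gucy2c, the gut receptor of guanylin, had 0 counts in BAT_30C. The medians were 0.72 for ligands and processing, -0.38 for the nitric oxide branch, -0.34 for the phosphodiesterases and -0.20 for the targets, against -0.05 over all genes tested.

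**Figure D4:**
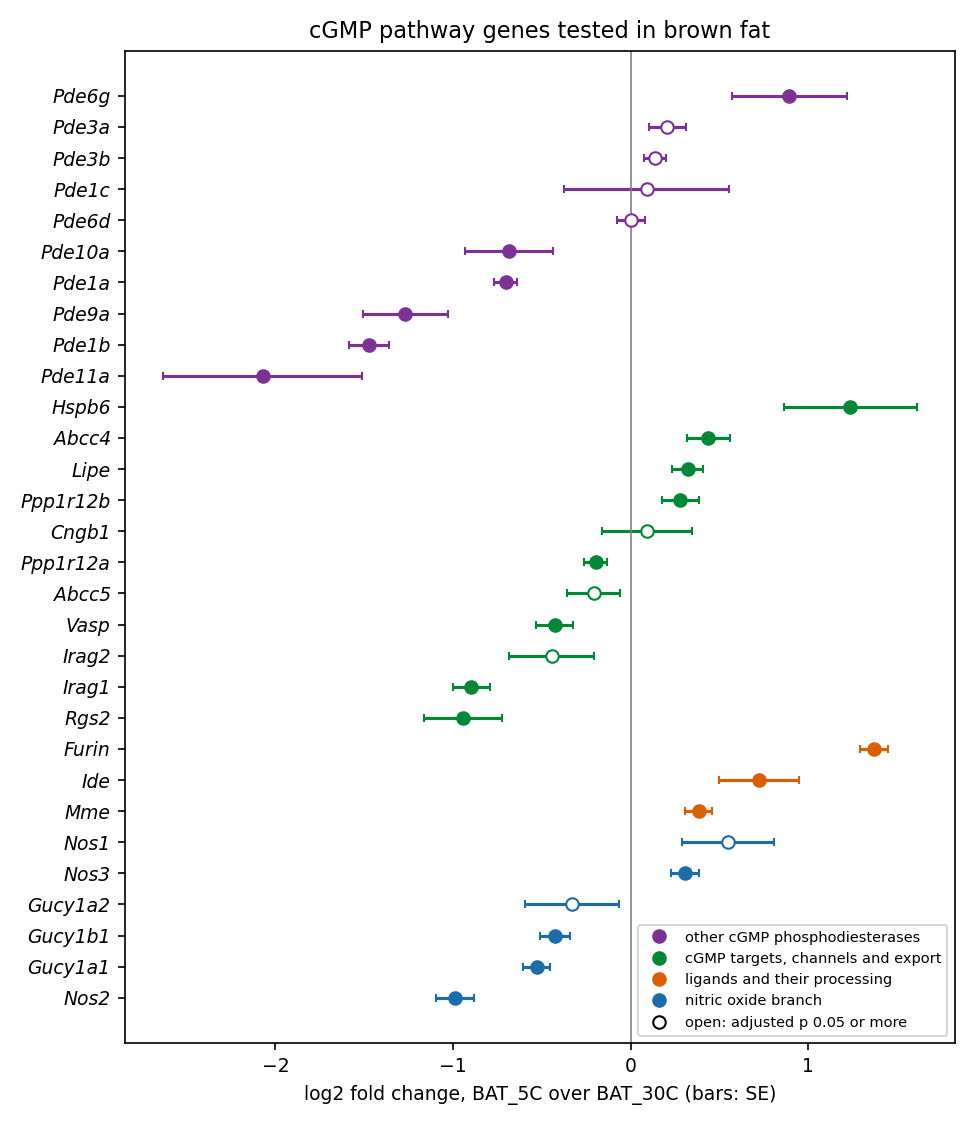
Log2 fold change of BAT_5C over BAT_30C for the 30 further genes of the cGMP route tested in brown fat, coloured by list, with bars of 1 SE on each side; filled points passed an adjusted p of 0.05. The 3 processing enzymes lie right of 0, led by Furin at 1.37, and Pde1b (-1.47), Pde9a (-1.27) and Nos2 (-0.99) lie to the left.

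In white fat 0 of 36 tested genes of the route passed, and 0 of 37 without WAT_5C replicate 1, in the edgeR fits of white fat alone. The edgeR fit of all 16 libraries called 3, all upwards, where 1587 of all 19481 genes were called, 1439 upwards and 148 downwards. With limma-voom 3 were called, 1 upwards and 2 downwards, where 2268 of all 18975 genes were called, 1392 upwards and 876 downwards. The effects of cold differed between the fats for 9 of 37, 8 upwards and 1 downwards, where 20.8% of all genes were called, 12.5% upwards and 8.34% downwards. Among these the phosphodiesterase gene Pde1b had a difference of 1.25 (edgeR interaction term, adjusted p = 3.51e-05), Irag1 one of 0.93 (adjusted p = 0.00112) and Furin one of -1.02 (adjusted p = 0.00112). The soluble cyclase subunits Gucy1a1 (0.47, adjusted p = 0.00726) and Gucy1b1 (0.59, adjusted p = 0.0108) and the synthase Nos2 (1.49, adjusted p = 0.0162) were called as well. Without WAT_5C replicate 1 the count was 8 upwards and 3 downwards of 38. In that fit 31.3% of all genes were called, 15.6% upwards and 15.7% downwards.

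Between the fats at 30 °C 28 of 37 genes of the route were called, 17 higher and 11 lower in brown fat, near the 69.8% of all genes called (34.5% higher and 35.3% lower). Rgs2 averaged 284 ± 96.1 CPM in BAT_30C and 31.7 ± 7.21 CPM in WAT_30C (log2 fold change 3.17 ± 0.33 SE, edgeR adjusted p = 8.13e-07). Irag2, also named Lrmp, averaged 3.61 ± 0.454 CPM in BAT_30C and 72.4 ± 15.5 CPM in WAT_30C (log2 fold change -4.33 ± 0.34 SE, adjusted p = 5.98e-08). The cyclase subunit Gucy1b1 was higher in brown fat by 1.28 on the log2 scale (adjusted p = 1e-07). At 5 °C 16 were higher and 12 lower in brown fat, and 18 and 12 of 38 without WAT_5C replicate 1, where 72.4% and 76.2% of all genes were called.

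The genes most like each of the 6 over the 16 libraries were found by Pearson's r of log2 CPM among 11017 genes, as a description that mostly follows the difference between the groups. For Npr1 they were Snx21, Ndn and Tatdn3, with r of 0.99 each. Ndn (necdin) averaged 50.8, 154, 16.3 and 16.9 CPM in BAT_5C, BAT_30C, WAT_5C and WAT_30C. For Prkg2 they were Hoxc10, Cmip and Hs3st3b1 (r = 0.97, 0.96 and 0.96), and Hoxc10, a homeobox gene, had 0 counts in brown fat and averaged 13.6 CPM in WAT_5C and 8.17 CPM in WAT_30C. For Pde5a they were Zfp111, Zfr2 and Rab17 (r = 0.94 each). For Npr3 they were Txlnb, Cav1 and Rasgrf2 (r = 0.91, 0.88 and 0.88), and for Npr2 Flot1, Ptpra and Plod3 (r = 0.97, 0.95 and 0.95). Prkg1 had the least close ones, Zfp704, Ska2 and Pitpnm3 (r = 0.77, 0.77 and 0.75).

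Reads of overlapping genes cannot be told apart, since the strand setting of the counting is not given in the sources used here. The antisense gene Gm16048 shares 559 exon bases with Npr1 and had 13 to 35 counts per library, beside 3590 to 11992 counts of Npr1. Gm12473 shares 266 exon bases with Npr2 and had 83 to 246 counts, beside 2120 to 5820 counts of Npr2. Gm5144, on the opposite strand, shares 321 exon bases with Npr3 and is not among the genes with deposited counts. Of all stretches of 50 bases in the annotated exons, 7.57% of Npr1, 4.36% of Npr2 and 2.41% of Npr3 also occur in another gene.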

How the data were processed

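The authors deposited raw counts, whole numbers for 46078 Ensembl identifiers in 16 library columns. Trim Galore and TopHat are named, with no version, per the submitters' processing notes. How reads were counted (program, strand setting, annotation) and the genome build were not given in the sources used here. Libraries used a poly(A) TruSeq protocol, per the labels' protocols. Symbols came from GENCODE M21, by identifier (45143 named); lengths are from its longest coding transcripts. The genes and lists were chosen with earlier results of these data known, and 1 listed symbol found no match.

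Counts were scaled by TMM, kept where filterByExpr passed them (settings: count of 10, total of 15) and tested with the edgeR 4.0.16 quasi-likelihood F-test (R 4.3.3), with Benjamini-Hochberg adjustment over all genes and a threshold of 0.05. Brown and white fat were fitted apart for cold (16213 and 18975 genes), and tissue and interaction contrasts came from all 16 libraries (19481 genes). The SE was taken as the size of the log2 fold change divided by the root of its F, and 95% intervals are unadjusted. The ratio test used log2 of the counts plus 0.5. The procedure was tested on simulated data. Genes named are the 6, the ligands, up to 4 per list by adjusted p, Ucp1, and the 3 most alike with a mean of 5 CPM or more. Alternatives were RLE factors, library totals, no filter, DESeq2 1.42.0, limma-voom (limma 3.58.1), a replicate block, each library left out, other sets of libraries, label choices and a ratio pseudocount of 1; list counts without WAT_5C replicate 1 were added after seeing the data. All 24 pairs of replicates differed beyond sampling noise (chi-square per degree of freedom 21.4 to 851).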

Additional observations from a re-analysis of the deposited data

Results flagged for a closer look

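WAT_5C replicate 1 lay far from the other libraries of its group for the receptors Npr2 and Npr3. It had 93.2 CPM of Npr2, against 34.0 to 43.9 CPM in the other 3, and 176 CPM of Npr3, against 18.6 to 32.3 CPM in the other 3. These 2 stood out by Dixon's test at 0.829 among 28 groups checked, where chance marks about 1 in 20. The effects of cold differed between the fats by 1.22 on the log2 scale for Npr1 and 1.57 for Pde5a, white minus brown, and without WAT_5C replicate 1 by 1.07 for Npr1, 1.71 for Pde5a and -2.04 for Npr3, each by an interaction term of edgeR.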

How the results depend on the processing

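The falls of Npr1 and Pde5a in brown fat and their differences between the fats kept direction and call under every alternative run except for groups taken from the source name, which left 0 of the 6 genes and 0 of all genes called and gave Npr1 -0.014, Pde5a 0.071 and Prkg2 0.40. The 4 brown fat libraries whose labels match gave 6058 called genes and 0.33 for Prkg2. With single libraries left out, Prkg2 of brown fat ran from -0.20 to 0.22, turning without BAT_5C replicate 1 (0.11) or BAT_30C replicate 4 (0.22). In white fat the count of called genes (12) was 82 with library totals, 25 without a filter, 1122 with DESeq2, which called 1 of the 6, 2268 with limma-voom, 1587 with all 16 libraries and 0 to 408 with each library left out. Library totals turned the white fat values of Npr1 (-0.091), Npr2 (-0.048), Prkg1 (-0.14) and Pde5a (-0.034), and moved the median of all genes there by -0.25. Npr2 was -0.015 with limma-voom and ran from -0.12 (without WAT_5C replicate 1) to 0.46 with single libraries left out, and Prkg1 from -0.10 (without WAT_5C replicate 4) to 0.26, with -0.029 without WAT_30C replicate 1. Library totals also turned Npr3 of brown fat to -0.19. Between the fats at 30 °C they left 2 of the 6 called and turned Npr2 (-0.049), Npr3 (-0.21), Prkg1 (-0.48) and Pde5a (-0.33), and at 5 °C they turned Npr2 to -0.69, which ran from -0.012 (without WAT_5C replicate 2) to 0.55 (without WAT_5C replicate 1). At 5 °C limma-voom called 6 of the 6, against 3, where it called 15508 of all 19481 genes, against 14098. Leaving out single libraries called 3 to 5 of the 6, where 13428 to 15125 of all genes were called. The interaction called 4055 genes, 6797 with limma-voom and 3221 to 6222 with each library left out. Library totals split the calls into 2323 higher and 8831 lower in brown fat with cold (4741 and 4906 with TMM), 2505 and 12875 between the fats at 30 °C (6712 and 6884), 2118 and 13882 at 5 °C (6201 and 7897) and 2608 and 1080 in the interaction (2431 and 1624, and 2056 and 2099 with RLE factors). The causes of these moves were not tested, beyond the change of scale that library totals bring. Counts of 5 to 17 per library limit Prkg2 in brown fat.

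No label ties samples of equal replicate number, and the data do not settle whether they are paired. Their deviations from the group means correlated at -0.456 to 0.287 over 24 pairs. Between the fats the range was 0.0108 to 0.287 at 5 °C and -0.238 to 0.0547 at 30 °C. Unequal numbers were not computed as a reference. With a replicate block 9091 genes were called in brown fat, with Npr1 at -0.998 (edgeR adjusted p = 0.000251), 0 in white fat and 3384 in the interaction. The block brought Npr3 past the threshold between BAT_5C and WAT_5C (2.01, adjusted p = 0.00581) and changed no other call among the 6.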
